A study of Saccharomyces cerevisiae with 83 samples.

Results

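Of the 4817 genes carried by the pooled plasmid library, 10 code for histones, and these were picked from both count tables by their systematic names. They are HTA1 (YDR225W) and HTA2 (YBL003C) for histone H2A, HTB1 (YDR224C) and HTB2 (YBL002W) for H2B, HHT1 (YBR010W) and HHT2 (YNL031C) for H3, HHF1 (YBR009C) and HHF2 (YNL030W) for H4, HTZ1 (YOL012C) for the variant H2A.Z, and HHO1 (YPL127C) for the linker histone H1. They account for 11 of the 4871 plasmid entries, because HTB1 is listed under 2 entries, called entry 1 and entry 2 here. By their systematic names the genes lie on chromosomes II, IV, XIV, XV and XVI, with HTA1 and HTB1 on IV and HTZ1 on XV.

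Histones H2A, H2B, H3 and H4 form the protein core around which DNA is wound in the nucleosome. In budding yeast the genes of H2A and H2B, and those of H3 and H4, lie side by side on opposite strands and are transcribed mainly while DNA is being copied, and free histones beyond what the chromosomes bind are toxic and are degraded. HHT2 and HHF2 are known as the more strongly expressed genes for H3 and H4, H2A.Z is placed beside promoters by the SWR1 complex, and H1 binds the DNA between nucleosomes.

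The measurement is the share of each barcode in a pool of cells that compete with each other, so a plasmid that slows its carriers, or is lost from them, becomes rarer. Haploids of the North American YPS1009 background received the barcoded centromeric library and were grown with shaking at 30 °C in synthetic medium without histidine; every group, euploid ones included, had nourseothricin (100 mg per L), which keeps the extra chromosomes, and G418 (200 mg per L), which keeps the plasmids. The series holds euploid strains and strains with an extra chromosome IV, VII, XII or XV, each with or without SSD1, which codes for an RNA-binding protein, but which number stands for which strain was not given in the labels used here. An extra chromosome IV or XV would add a chromosomal copy of HTA1 and HTB1 or of HTZ1, and this could not be tied to any strain. Batch 1 held strains AGY1611, AGY1612, AGY1613 and AGY1614, each with 4 cultures, labelled A to D, from 2 transformations at generations 0 and 10. Batch 2 had 3 cultures, from 3 transformations, of each of 7 strains: 3 of them (AGY1860, AGY1611 and AGY1613) have libraries of generations 0, 5 and 10, another 3 (AGY1859, AGY1862 and AGY1863) had no generation 5 sample, and AGY1861 had no generation 10 sample.

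The 83 libraries differed in depth. In batch 1 a starting library held 3237303 to 8351355 counts and a final one 457053 to 2993246. Totals in batch 2 were 1298424 to 7559499 at generation 0, 452054 to 5409233 at generation 5 and 561486 to 3506174 at generation 10. Levels are given as CPM, the count scaled to a common library size by the TMM method, and changes as fitted log2 ratios of generation 10 (or 5) over generation 0 with their standard error (SE). An entry is described as lower or higher only where edgeR's quasi-likelihood test gave a Benjamini-Hochberg adjusted p, taken over all entries tested in that comparison, under 0.05. The scaling factor of the AGY1861 libraries at generation 5 was 0.479 to 0.692, and that of the AGY1614 libraries at generation 10 was 0.656 to 0.832. With library size alone the median change of all entries shifted by -0.89 in the former and by -0.52 in the latter. In batch 1 the changes of all entries correlated at r = 0.88 to 0.967 between cultures A and B or C and D of a strain, and at 0.436 to 0.697 between the other pairs of cultures, so p-values that count 4 cultures are too small. Counts of calls in batch 1 are therefore also given with the counts of A and B added up, and those of C and D likewise (summed cultures). Whether a lower share came from fewer cells with the plasmid or fewer plasmids per cell cannot be told apart, and histone RNA and protein were not measured.

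At generation 0 HTB1 entry 1 was near 0 in batch 2, and every other entry was measured in all strains. HHT2 and HHO1 were the rarest of the others, with HHT2 at 62.6 to 82.9 CPM (median 72.6) over the 16 starting libraries of batch 1 and 51.7 to 82.6 (median 71.4) over the 21 of batch 2. HTA2, the most abundant in batch 1, had 339.7 to 421 CPM (median 358) there and 323 to 381 (median 353) in batch 2. HTA1 had 204 to 279 CPM in batch 1 and 319.8 to 397 in batch 2, ranges that do not overlap. A joint edgeR test of the starting share over the strains called 0 of 11 entries in batch 1 and 0 of the other 10 in batch 2 (0% of all entries in each). DESeq2 also called 0, and at an unadjusted p under 0.05 edgeR found 0 in each batch. The spread in these fits is that of all generations. In fits on the generation 0 libraries alone, added after seeing the data, edgeR again called 0 in each batch, and the lowest unadjusted p was 0.0679 (HHO1) in batch 1 and 0.0255 (HTZ1, adjusted p = 0.34) in batch 2. A p that misses the threshold does not show that the starting shares were alike.

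Over 10 generations the plasmids of HTA2, HHT2 and HHF2 were each lower in 8 of 10 comparisons (strain and batch), HTA1 in 7, HHT1 and HHF1 in 5, HTB2 and HTB1 entry 2 in 4 and HHO1 in 1. HTB1 entry 1 was lower in 0 of the 4 of batch 1, and HTZ1 was higher in 8 of 10. AGY1611 and AGY1613 are in both batches, so each fills 2 of the 10 comparisons. The batch 1 part of these tallies counts 4 cultures a strain. With summed cultures HTA2 and HHF2 were still lower in all 4 strains of batch 1. HTA1 was then not lower in all 4, and HTZ1 was not higher in all 4. The share of all entries with as many calls is not given here. Among 44 tests in batch 1 (11 entries in 4 strains), 28 were lower and 4 were higher, the latter all of HTZ1. By strain, 3 of 11 entries were lower in AGY1611 against 23.8% of all entries tested, 8 in AGY1612 against 25.9%, 8 in AGY1613 against 21.3% and 9 in AGY1614 against 28.3%. HTZ1 alone was higher, in each of these strains, against 24%, 17.1%, 19.5% and 24.8% of all entries. With the paired cultures summed, 22 of the 44 tests were called (20 lower, 2 higher). The summed counts called 3 of 11 in AGY1611 (12.7% of all entries in either direction), 6 in AGY1612 (17.1%), 4 in AGY1613 (9.69%) and 9 in AGY1614 (26.6%).

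In batch 2, without HTB1 entry 1, 22 of 60 tests (10 entries in 6 strains) were lower and 4 were higher. AGY1611 had 4 lower entries against 11.3% of all, AGY1613 had 7 against 7.01%, AGY1859 had 6 against 9.35%, AGY1860 had 0 against 14.7%, AGY1862 had 1 against 11.5% and AGY1863 had 4 against 13.5%. In AGY1860, DESeq2 called HTA2 and HHF2 lower, with adjusted p-values of 0.0349 and 0.0353. By edgeR 3 of 10 histone entries had an unadjusted p under 0.05 there, as had 1477 of all 4579 entries. Same-numbered samples of AGY1860 at generations 0 and 10 deviated together (r = 0.166 to 0.267 over all entries). With the number as a replicate block edgeR called HTA2, HTA1 and HHF2 lower there, with adjusted p-values of 0.0241, 0.0254 and 0.014. The shares of all entries that DESeq2 and the block called in AGY1860 are not given here. The 14.7% above is from the edgeR fit without the block. The entry that was higher was HTZ1, in AGY1611 (7.62% of all entries), AGY1860 (6.25%), AGY1862 (6.7%) and AGY1863 (4.04%), while AGY1613 (4.35%) and AGY1859 (5.18%) had 0. The median log2 change of the histone entries was -0.13 in AGY1611, -1.04 in AGY1612, -1.13 in AGY1613 and -1.82 in AGY1614 of batch 1, where all entries had medians of 0.03 to 0.09. In batch 2 the median of the 10 entries ran from -0.18 in AGY1860 to -1.45 in AGY1613, beside medians of 0.01 to 0.04 over all entries.

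**Figure D1:**
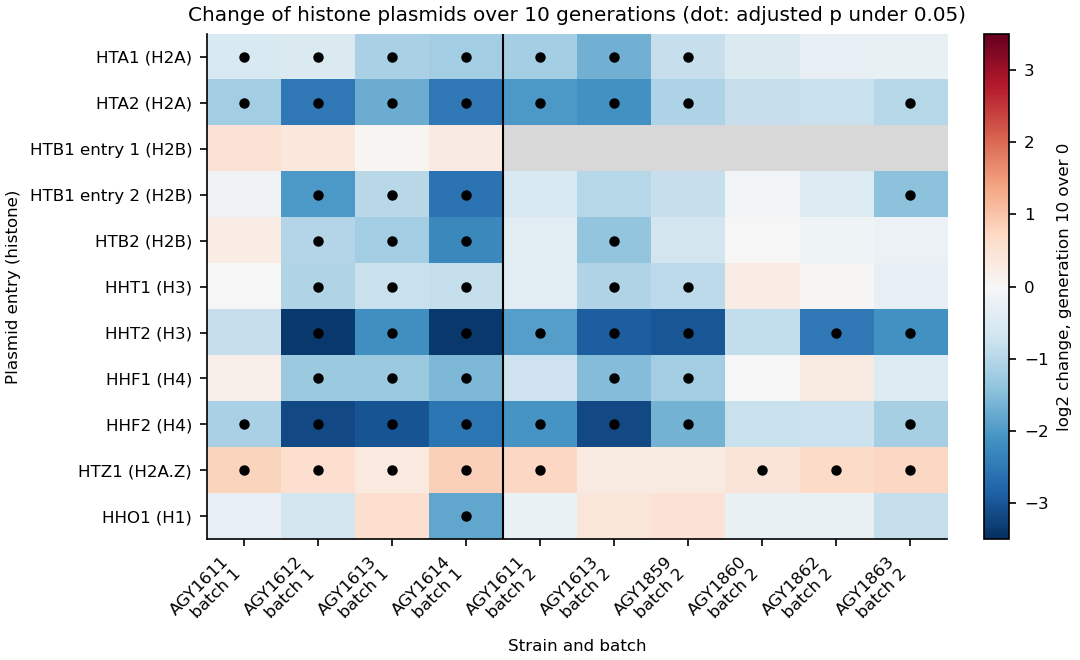
Fitted log2 change from generation 0 to 10 for each histone plasmid entry (vertical axis) in each strain and batch (horizontal axis, batches split by the line), with dots where edgeR's adjusted p was under 0.05. HTB1 entry 1 is left grey in batch 2, where it was near 0 at the start. HHT2 and HHF2 hold the darkest blue, to -3.39 and -3.17, and HTZ1 is the row that is red throughout, at 0.31 to 0.84.

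Of the H2A genes, HTA2 lost more of its share than HTA1. In batch 1 HTA2 began at 349, 364, 351 and 346 CPM in the 4 cultures of AGY1611 and ended at 199.5, 204, 86.1 and 115. In AGY1612 it ended at 63.1, 77.7, 52.8 and 57.5, in AGY1613 at 121, 108, 113 and 88.2, and in AGY1614 at 79.9, 51.4, 56.6 and 76.3 CPM. All of these end values lay below every starting library, and in AGY1611 cultures A and B were the higher. The log2 changes were -1.22 (SE 0.19), -2.51 (0.20), -1.74 (0.19) and -2.51 (0.21), in the order of strain number, with adjusted p-values by edgeR of 6.82e-06, 2.85e-11, 3.19e-08 and 1.09e-10, and the calls held with summed cultures, at adjusted p-values of 0.0266, 0.000211, 0.00409 and 0.000206.

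In batch 2 HTA2 ended at 80.3, 117 and 54.4 CPM in AGY1611, at 36.9, 113 and 79.8 in AGY1613, at 151, 149 and 187 in AGY1859, and at 79.7, 188 and 284 in AGY1863. It was lower in these 4 strains, by -2.01 (SE 0.32), -2.11 (0.32), -1.07 (0.31) and -0.99 (0.30), with edgeR adjusted p-values of 5.03e-06, 4.77e-06, 0.0119 and 0.0188. The end values of AGY1860 were 205, 172 and 249.8 CPM and those of AGY1862 were 246, 139 and 230.1. These too lay below every start value of 344 to 369.7 CPM in their strains, yet their log2 changes of -0.80 and -0.77 had edgeR adjusted p-values of 0.054 and 0.0678, while DESeq2 called both (0.0349 and 0.0451). The call of AGY1863 was lost when only its own libraries were fitted (edgeR adjusted p = 0.155).

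HTA1 had a range of 70.8 to 231 CPM (median 148) at the end of batch 1 and of 90.6 to 412 (median 223) at the end of batch 2. It was lower in all 4 strains of batch 1, by -0.53, -0.51, -1.13 and -1.21 in the order of strain number, and in AGY1611 (-1.19), AGY1613 (-1.68) and AGY1859 (-0.80) of batch 2. With summed cultures the calls of AGY1611 and AGY1612 were lost, with edgeR adjusted p-values of 0.271 and 0.349. The call of AGY1859 (edgeR adjusted p = 0.045) held in 19 of the 51 fits that left out 1 library. In AGY1862 and AGY1863 HTA1 changed by -0.28 and -0.25 log2 units. The highest end value was 412 CPM in AGY1862, above its starts of 372 to 387, and 394 CPM in AGY1863, within its starts of 324 to 397.

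For H2B, HTB1 entry 2 and HTB2 were lower in 4 of 10 comparisons each, and HTB1 entry 1 in 0 of the 4 of batch 1. HTB1 entry 2 ended at 258, 308, 67.9 and 88.2 CPM in the cultures of AGY1611, so that A and B stood above and C and D below its starting range of 187 to 242. In AGY1612 it ended at 58.4, 55.0, 36.8 and 43.6, in AGY1613 at 63.1, 67.0, 137 and 133, and in AGY1614 at 28.5, 24.6, 32.2 and 60.5 CPM. Its log2 change was -0.13 (SE 0.32) in AGY1611, -2.01 (0.34) in AGY1612, -0.98 (0.33) in AGY1613 and -2.58 (0.37) in AGY1614, and by edgeR it was lower in the last 3, with adjusted p-values of 1.45e-05, 0.017 and 1.07e-06. With summed cultures the call of AGY1613 was lost (edgeR adjusted p = 0.27). In batch 2 it was lower in AGY1863 (-1.43, edgeR adjusted p = 0.00988), where it ended at 64.1, 65.5 and 85.1 CPM.

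HTB2 was lower in AGY1612 (-1.04), AGY1613 (-1.22) and AGY1614 (-2.25) of batch 1 and in AGY1613 of batch 2 (-1.39, edgeR adjusted p = 0.017). With summed cultures the call of AGY1614 held (edgeR adjusted p = 0.00212), and those of AGY1612 and AGY1613 did not (0.122 and 0.0855). In AGY1611 of batch 1 HTB2 ended at 241, 246, 168 and 154 CPM, a change of 0.25 (SE 0.25) that did not pass the test. Its change in AGY1860, AGY1862 and AGY1863 lay between -0.21 and -0.02.

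Entry 1 of HTB1 in batch 1 began at 245 to 302 CPM (median 268) and ended at 195 to 497 (median 360) over 16 libraries each. In AGY1611 it ended at 384, 358, 362 and 394 CPM, in AGY1612 at 458, 414, 259 and 227, in AGY1613 at 222, 221, 364 and 343, and in AGY1614 at 405, 497, 204 and 195. Cultures A and B stood on the other side of the starting median from C and D in the last 3 strains, above it in AGY1612 and AGY1614 and below it in AGY1613. Its fitted changes were 0.50, 0.36, 0.08 and 0.28, and 0 of 4 passed the test by edgeR or by DESeq2; AGY1611 alone had an unadjusted p under 0.05 (edgeR, 0.0334), and it was called when only its own libraries were fitted (edgeR adjusted p = 0.00361). With library size alone the changes of AGY1613 and AGY1614 turned to -0.09 and -0.28.

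The change of entry 1 exceeded that of entry 2 by 1.75 log2 units (SD 0.88 over 4 strains), in 4 of 4 strains and 15 of 16 cultures; an exact two-sided sign-flip permutation test over the strains gave p = 0.125, the smallest that 4 strains allow. Among 43 genes with 2 entries that both had at least 50 counts per starting library, the median absolute difference between entries was 1.09, the 90th percentile was 1.96 and HTB1, at 1.73 by the fitted values, was matched or exceeded by 10 genes. What distinguishes the entries was not given in the sources used here.

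**Figure D2:**
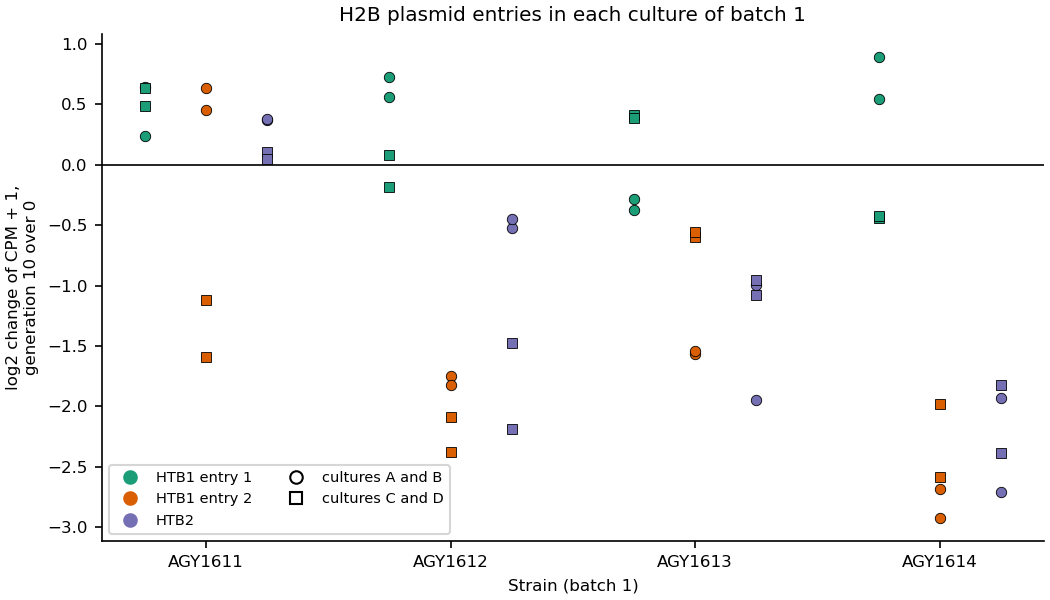
Log2 change of CPM + 1 from generation 0 to 10 (vertical axis) of the H2B plasmid entries in each culture of the batch 1 strains (horizontal axis), with circles for cultures A and B and squares for C and D. HTB1 entry 1 sits above entry 2 in 15 of 16 cultures, and entry 1 in AGY1613 and AGY1614 has circles and squares on opposite sides of 0.

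In batch 2 entry 1 of HTB1 was almost missing from the start. It had 0 to 6 counts in the 21 libraries at generation 0, a highest level of 0.863 CPM, and 0 to 3 counts in the 18 at generation 10. It had 27, 46 and 41 counts in the libraries of AGY1861 at generation 5, and 0 to 2 in the other 9 libraries of that generation. It passed the filter on low counts only through those 3 libraries, so no fold is given. It was 1 of 62 names, of 4286 with at least 100 counts on average at the start of batch 1, that had under 10 in batch 2.

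Of the H3 genes, HHT2 had the lowest mean change of all members, -2.30 (SD 0.92 over 10 comparisons, lower than 0 in 10 of 10), and HHT1 had -0.50 (SD 0.49). HHT2 ended batch 1 at 65.7, 72.4, 10.0 and 11.5 CPM in AGY1611, at 2.01, 4.28, 9.46 and 12.6 in AGY1612, at 17.9, 14.1, 18.1 and 14.2 in AGY1613, and at 3.80, 5.77, 6.66 and 13.2 in AGY1614. Cultures A and B of AGY1611 remained within its starting range, and all other cultures ended below every starting library. These low levels rest on few counts, 2 to 38 in AGY1612 and AGY1614. The log2 changes were -0.82 (SE 0.46; edgeR adjusted p = 0.142), -3.36 (0.51; 2.72e-06), -2.15 (0.48; 0.000669) and -3.39 (0.55; 7.27e-06), and with summed cultures AGY1612 and AGY1614 kept their calls while AGY1613 did not (edgeR adjusted p = 0.116).

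In batch 2 HHT2 was lower in 5 of 6 strains. It ended at 11.9, 33.9 and 10.5 CPM in AGY1611, at 8.39, 3.40 and 18.5 in AGY1613, at 3.33, 7.52 and 12.3 in AGY1859, at 18.7, 6.09 and 12.9 in AGY1862, and at 24.7, 9.98 and 16.1 in AGY1863. Each of these lay below the start values of its strain. The changes were -1.94 (SE 0.63), -2.90 (0.67), -2.98 (0.67), -2.50 (0.65) and -2.12 (0.64), with edgeR adjusted p-values of 0.0257, 0.00242, 0.00113, 0.00476 and 0.0156. AGY1860 ended at 10.6, 26.0 and 72.7 CPM, the last of which lay above its start values of 55.8 to 70.8, and its change of -0.86 (SE 0.61) did not pass (edgeR adjusted p = 0.362). In fits on the libraries of each comparison alone, the calls of AGY1611, AGY1859, AGY1862 and AGY1863 were lost, with edgeR adjusted p-values of 0.0502 to 0.086.

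HHT1 was lower in AGY1612 (-1.04), AGY1613 (-0.77) and AGY1614 (-0.84) of batch 1, of which AGY1613 was lost with summed cultures (edgeR adjusted p = 0.0667). In AGY1611 it ended at 291, 257, 351 and 309 CPM, values on both sides of its own starts of 291 to 309, with a fitted change of 0.02 (SE 0.16). In batch 2 it was lower in AGY1613 (-1.05) and AGY1859 (-0.92), and its changes in AGY1860 and AGY1862 were 0.25 and 0.04. The call of AGY1859 was lost when only its own libraries were fitted (edgeR adjusted p = 0.229).

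Of the H4 genes, HHF2 was lower in 8 of 10 comparisons, with a mean change of -1.94 (SD 0.98), and HHF1 in 5, with -0.76 (SD 0.73). HHF2 ended batch 1 at 85.8, 82.0, 198 and 110.4 CPM in AGY1611, at 40.3, 22.7, 23.9 and 33.3 in AGY1612, at 16.9, 32.5, 40.5 and 37.5 in AGY1613, and at 79.9, 34.6, 23.3 and 44.7 in AGY1614, all below its starting minimum of 224 CPM. The changes were -1.14 (SE 0.27), -3.16 (0.30), -3.02 (0.30) and -2.57 (0.30). All 4 calls held with summed cultures, at edgeR adjusted p-values of 0.0415, 9.35e-05, 0.000276 and 0.000237.

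In batch 2 HHF2 ended at 68.5, 52.2 and 94.9 CPM in AGY1611, at 33.5, 39.5 and 35.5 in AGY1613, at 126, 70.5 and 88.5 in AGY1859, and at 119, 116 and 151 in AGY1863. It was lower in these strains by -2.07 (SE 0.31), -3.17 (0.33), -1.65 (0.30) and -1.16 (0.29), with edgeR adjusted p-values of 1.37e-06, 4.25e-10, 7.38e-05 and 0.00372. In AGY1860 it ended at 263, 82.8 and 149 CPM, the first within its start range of 243 to 319, and in AGY1862 at 191, 241 and 149, below its starts of 306 to 338. Their changes of -0.77 and -0.75 missed the threshold, with edgeR adjusted p-values of 0.0527 and 0.0641, while DESeq2 called both (0.0353 and 0.0458).

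HHF1 was lower in AGY1612 (-1.30), AGY1613 (-1.30) and AGY1614 (-1.56) of batch 1, and these calls held with summed cultures at edgeR adjusted p-values of 0.0339, 0.0453 and 0.00883. In AGY1611 it ended at 266, 285, 143 and 132 CPM, A and B above and C and D below every starting library. In batch 2 it was lower in AGY1613 (-1.51) and AGY1859 (-1.21), and changed by 0.32 (SE 0.31) in AGY1862.

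HTZ1, for H2A.Z, had a mean change of 0.58 (SD 0.20 over 10 comparisons), above 0 in 10 of 10, and with library size alone also above 0 in each, from 0.18 to 0.66. With library size alone the change of AGY1614 went from 0.84 to 0.30, and that of AGY1613 in batch 1 from 0.35 to 0.18, where the call was lost (edgeR adjusted p = 0.243). That call was also lost with DESeq2 size factors (0.062) and with the replicate block (0.0666), by edgeR's adjusted p. In batch 1 it began at 307 to 381 CPM (median 327) and ended at 638, 581, 459.6 and 478 in AGY1611, at 442, 427, 582 and 553 in AGY1612, at 467, 414, 435 and 401 in AGY1613, and at 658, 796, 526 and 497 in AGY1614. Every end value lay above every starting library. The changes were 0.77 (SE 0.13), 0.60 (0.13), 0.35 (0.13) and 0.84 (0.13), with edgeR adjusted p-values of 2.46e-05, 0.000394, 0.0317 and 4.36e-06. With summed cultures the calls of AGY1611 (0.0437) and AGY1614 (0.0125) held and those of AGY1612 (0.0926) and AGY1613 (0.334) did not, by the same edgeR adjusted p.

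In batch 2 HTZ1 ended at 474, 584 and 489 CPM in AGY1611, at 514, 486 and 357 in AGY1860, at 544, 526 and 457 in AGY1862, and at 616, 668 and 503 in AGY1863, each above the start values of its strain. It was higher in these strains by 0.72 (SE 0.17), 0.46 (0.17), 0.67 (0.17) and 0.72 (0.17), with edgeR adjusted p-values of 0.00156, 0.0418, 0.00378 and 0.00176. In AGY1613 it ended at 356, 451 and 378 CPM and in AGY1859 at 537, 385 and 339.7, changes of 0.31 (SE 0.17) and 0.32 (0.17) that did not pass. In AGY1859 the start values, up to 373 CPM, overlapped the end values. The call of AGY1860 was lost with library size alone and in fits on its own libraries (edgeR adjusted p = 0.144 and 0.109).

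**Figure D3:**
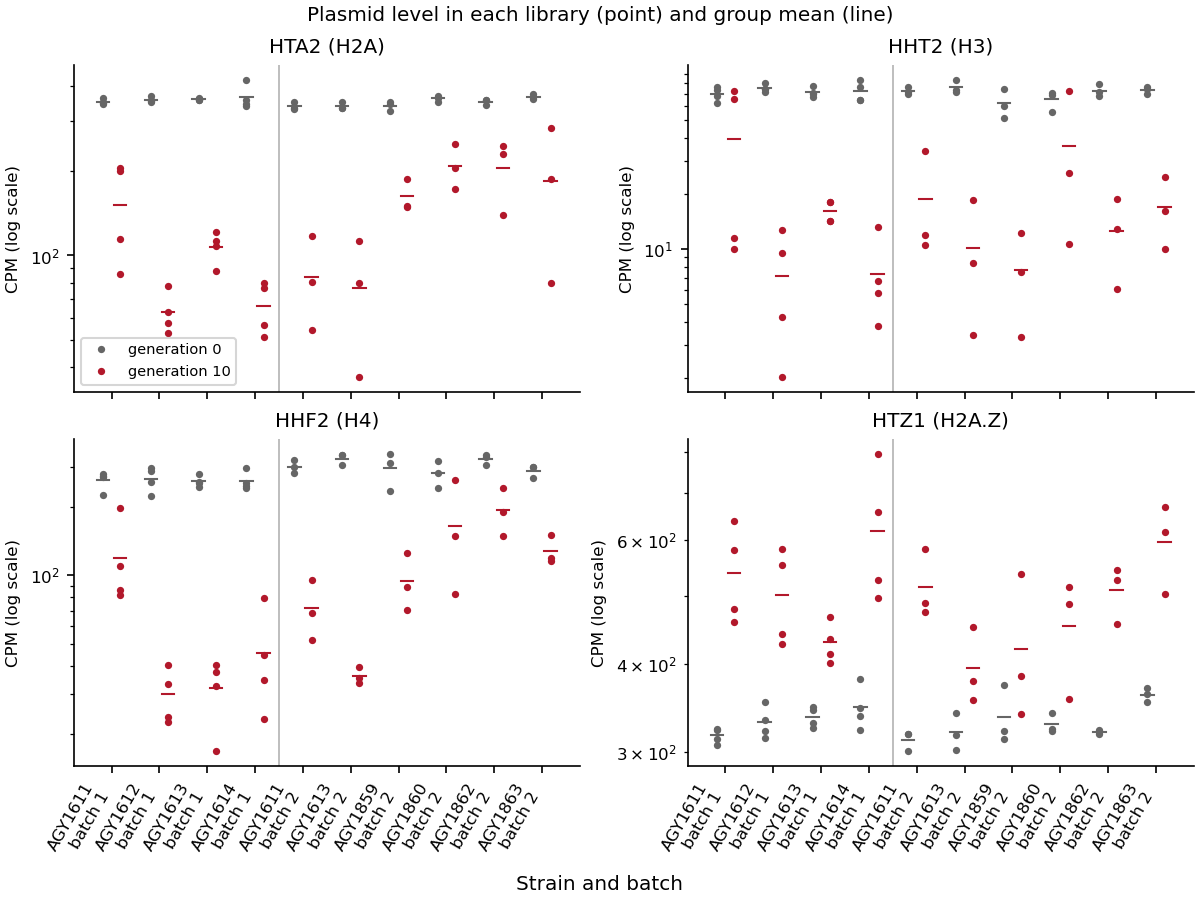
Level of HTA2, HHT2, HHF2 and HTZ1 in each library (points; vertical axis, CPM on a log scale) at generation 0 (grey) and 10 (red) by strain and batch (horizontal axis), with lines at group means. HTA2 lies below its start in every strain, cultures A and B of AGY1611 keep HHT2 at 65.7 and 72.4 CPM, and HTZ1 ends at 339.7 to 796 CPM.

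HHO1, for H1, was lower in 1 of 10 comparisons. In AGY1614 of batch 1 it ended at 19.0, 5.24, 28.9 and 47.4 CPM against 71.1 to 88.6 at the start of the batch, a change of -1.82 (SE 0.46, edgeR adjusted p = 0.00144) that was not called with summed cultures (edgeR adjusted p = 0.0625). In AGY1612 cultures A and B ended at 18.1 and 26.3 and C and D at 81.6 and 73.8 CPM, and in AGY1613 A and B ended at 65.3 and 60.4 and C and D at 184 and 142. In batch 2 AGY1860 ended at 125, 0.40 and 62.5 CPM, and its lowest value rests on 1 count. AGY1613 ended at 55.8 to 170 CPM and AGY1611 at 46.2 to 82.1. The SEs were 0.69 to 0.70 in all 6 strains, because the spread of an entry is estimated over the whole batch. They do not show how uneven each strain was. A change of the size seen for HTZ1 was not detectable at those SEs.

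As a description, with no test, the mean change by histone type over the batch 1 strains was -1.73 (SD 0.85) for H4, -1.54 (0.83) for H3, -1.42 (0.41) for H2A, -0.73 (0.71) for H2B with both HTB1 entries (-1.24, SD 1.03, without entry 1), -0.54 (0.99) for H1 and 0.64 (0.22) for H2A.Z. Over the 6 strains of batch 2 it was -1.30 (0.62) for H3, -1.10 (0.79) for H4, -1.04 (0.57) for H2A, -0.60 (0.40) for H2B with HTB1 entry 2, -0.11 (0.50) for H1 and 0.53 (0.19) for H2A.Z. The means of H2A, H3 and H4 differed by less than the SD over strains within each batch. HTA1, HTA2 and HHF2 were lower in all 4 strains of batch 1, as were 424 (9.19%) of all entries, and HTZ1 was higher in all 4, as were 203 (4.4%). With summed cultures HTA2 and HHF2 were lower in all 4, as were 167 (3.58%) of all entries, and 0 histone entries were higher in all 4, where 11 (0.236%) of all entries were. None of the entries was called in all 6 strains of batch 2, where 140 (3.06%) of all entries were lower and 6 (0.131%) higher throughout.

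Plasmids with the paired genes of a histone were compared, each gene being 1 plasmid entry here. The change per culture, on the log2(CPM + 1) scale, was averaged within each of 8 strains, and the difference between copies was tested over strains with a two-sided exact sign-flip permutation test, with 4 pairs compared. HHT1 exceeded HHT2 by 1.97 (SD 0.44), from 1.46 in AGY1860 to 2.57 in AGY1862. HHF1 exceeded HHF2 by 1.08 (SD 0.52), from 0.39 in AGY1863 to 1.79 in AGY1612, and HTA1 exceeded HTA2 by 0.80 (SD 0.59), from 0.14 in AGY1860 to 1.97 in AGY1612. Each of these was above 0 in 8 of 8 strains and in 32, 30 and 30 of 34 cultures. Each had an exact permutation p of 0.00781, the smallest that 8 strains allow, or 0.0104 adjusted over the 4 pairs. The 34 cultures are not separate observations, since those of batch 1 fall in pairs. The exceptions for HHT1 minus HHT2 were cultures A and B of AGY1611 in batch 1, at -0.035 and -0.39. Cultures C and D of that strain had 2.98 and 2.69.

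Within batches, HHT1 exceeded HHT2 by 1.85 in batch 1 and 1.91 in batch 2, HHF1 exceeded HHF2 by 1.49 and 0.96, and HTA1 exceeded HTA2 by 1.15 and 0.54. Between the 2 entries of 1 gene, the median absolute difference of the fitted changes was 1.09 (90th percentile 1.96) over 43 genes in batch 1 and 0.70 (1.40) over 40 genes in batch 2. HHT1 minus HHT2 lay above that 90th percentile in batch 2 and below it in batch 1, and the other differences lay below it in both batches. A difference between gene copies and a difference between single plasmids cannot be told apart. HTB1 entry 2 minus HTB2 was -0.38 (SD 0.46, adjusted exact permutation p = 0.0469), and was above 0 in 2 of 8 strains and 14 of 34 cultures. By strain this difference ran from -1.18 in AGY1863 to 0.27 in AGY1613. It missed the threshold in batch 2 alone (-0.26, exact permutation p = 0.3125) and without any 1 of AGY1611, AGY1612, AGY1614, AGY1860, AGY1862 or AGY1863, and with entry 1 in place of entry 2 it was 1.34 in batch 1. The lower copies HHT2 and HHF2 are neighbours on chromosome XIV, HTA2 lies on chromosome II beside HTB2, and the other H3 and H4 genes lie on chromosome II.

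**Figure D4:**
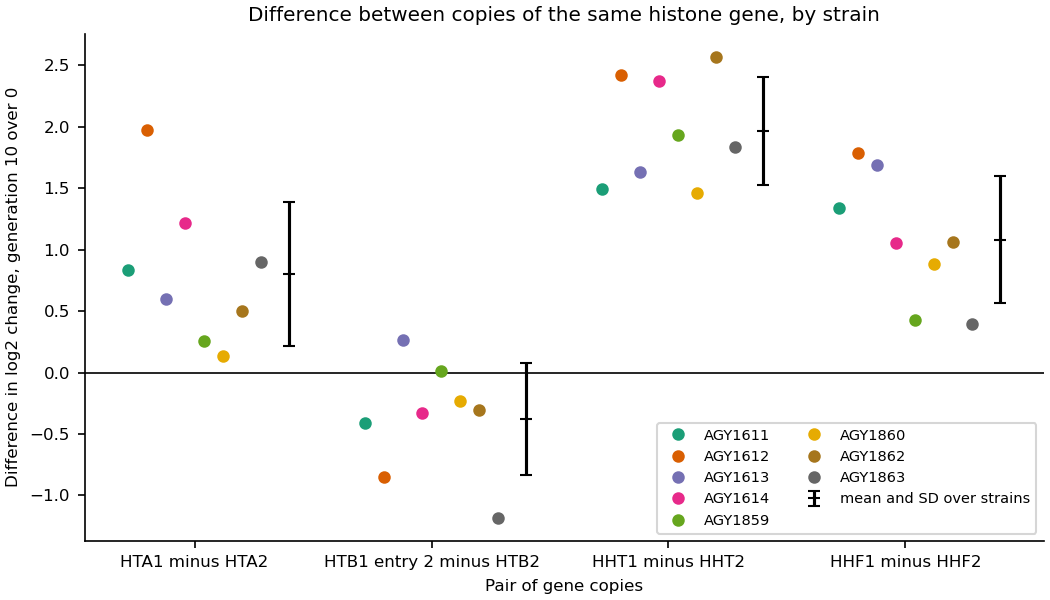
Difference between copies of a histone gene in the log2 change from generation 0 to 10 (vertical axis) for each of 8 strains (points) and each pair (horizontal axis), with the mean and SD over strains. All points of HTA1 minus HTA2, HHT1 minus HHT2 and HHF1 minus HHF2 lie above 0, and those of HTB1 entry 2 minus HTB2 lie on both sides.

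At generation 5 of batch 2 few histone entries had moved past the threshold. Without HTB1 entry 1, 2 of 40 tests were called, both higher: HTZ1 in AGY1860 (0.52, SE 0.17, edgeR adjusted p = 0.0483) and HTA2 in AGY1861 (1.83, SE 0.31, edgeR adjusted p = 3e-05). In AGY1860, 2.53% of all entries were higher and 4.78% lower, and in AGY1861 2.56% and 0.0218%. In AGY1611 and AGY1613 edgeR called 0 of all entries (0%), with 186 and 242 at an unadjusted p under 0.05. DESeq2 called HHF2 in AGY1613 (-1.29, adjusted p = 0.00983).

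HTA2 in AGY1861 went from 381, 323 and 357 CPM to 1315, 1759 and 699.8, above every other library in which it was measured. In the other strains at generation 5 it lay at 189, 283 and 235 CPM (AGY1611), 147, 236 and 242 (AGY1613) and 216, 201 and 279 (AGY1860). The call in AGY1861 held in all 7 alternatives run for it and in 51 of 51 fits that left out 1 library. These are the libraries with scaling factors of 0.479 to 0.692, and in the same libraries HTB1 entry 1 had 27, 46 and 41 counts and HHT1 stood at 678, 493 and 358 CPM (0.74, SE 0.24, edgeR adjusted p = 0.104). AGY1861 has no library at generation 10 here.

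The call of HTZ1 in AGY1860 at generation 5 was lost with DESeq2 size factors, with library size alone, with a minimum mean of 50 counts and in fits on its own libraries (edgeR adjusted p = 0.0511 to 0.151). Without AGY1861, 1 entry remained called at generation 5. In AGY1611 and AGY1613 HHF2 had changed by -0.63 and -1.21 at generation 5 and by -2.07 and -3.17 at generation 10, and HTZ1 by 0.44 and 0.25 and then by 0.72 and 0.31. In AGY1860 HHT2 had changed by -0.74 and then by -0.86, HHF2 by -0.68 and then by -0.77, and HTZ1 by 0.52 and then by 0.46. The departure from a constant rate over 10 generations was called in 0 of 30 tests (edgeR; DESeq2 also 0, and 0 at an unadjusted p under 0.05), as for 3 (0.0655%), 0 and 0 of all entries in AGY1611, AGY1613 and AGY1860.

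At generation 5 the difference between copies was 0.48, 0.66, 0.91 and 1.44 for HHT1 minus HHT2 in AGY1611, AGY1613, AGY1860 and AGY1861. For HTA1 minus HTA2 it was 0.11, -0.02 and 0.10 in the first 3 strains and -1.80 in AGY1861, where HTA2 had risen. HHF1 minus HHF2 was 0.33, 0.63, 0.48 and -0.16 in the same order, below 0 in AGY1861, and HTB1 entry 2 minus HTB2 was 0.00309, -0.081, -0.10 and -0.31.

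**Figure D5:**
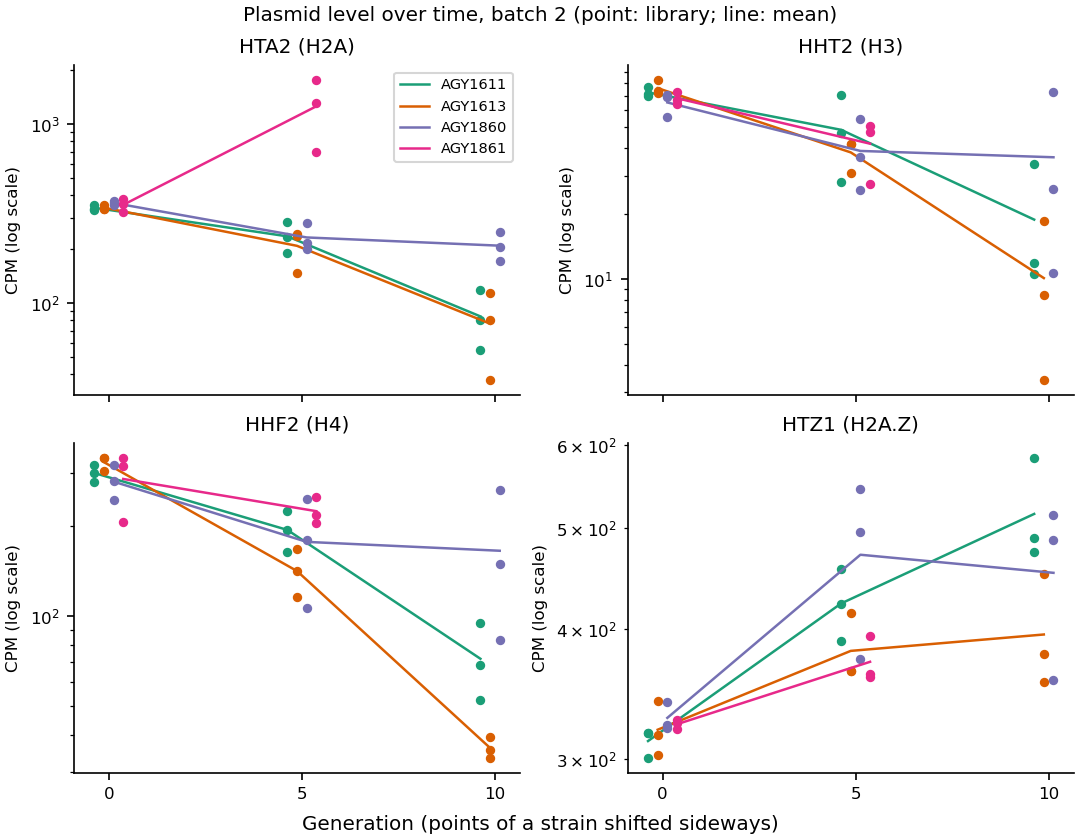
Level of HTA2, HHT2, HHF2 and HTZ1 (vertical axis, CPM on a log scale) in each batch 2 library (points) at generations 0, 5 and 10 (horizontal axis) in the strains with a generation 5 sample, with lines through the means. HTA2 at 699.8 to 1759 CPM in AGY1861 stands above all others, and HHT2 of AGY1860 spreads from 10.6 to 72.7 CPM at generation 10.

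Whether the strains of batch 1 differed in the change of histone plasmids depended on how the cultures were counted. The joint edgeR test over strains called 9 of 11 entries (48.1% of all entries), all but HTB1 entry 1 and HTZ1, with 4 cultures a strain. With summed cultures it called 0 of 11 (1.37% of all entries), at adjusted p-values of 0.0986 or more. At an unadjusted p under 0.05 it found 6 of 11, and the share of all entries at that p is not given here. Of 66 differences between pairs of strains 26 were called, 24 negative and 2 positive, and 19 of them were AGY1612, AGY1613 or AGY1614 below AGY1611. The log2 difference from AGY1611 was -2.50 for HTB2 in AGY1614 (edgeR adjusted p = 1.26e-05), and -2.55 for HHT2 and -2.02 for HHF2 in AGY1612. AGY1612 had 7 entries below AGY1611 against 16.1% of all entries below and 7.58% above, AGY1613 had 4 against 10.3% and 9.62%, and AGY1614 had 8 against 17.1% and 12.8%. Between the other pairs, HTA2 was higher in AGY1613 than in AGY1612 (6.15% of all entries below, 12.8% above), HTB2 was lower in AGY1614 than in AGY1612 (4.25% and 8.28%), and 4 entries were lower and HTZ1 higher in AGY1614 than in AGY1613 (14.9% and 12%). With summed cultures 1 of the 66 remained, HTB2 in AGY1614 against AGY1611 (edgeR adjusted p = 0.0402; 2.55% of all entries). In the other 5 pairs 0 remained, where 0.15% (AGY1612 and AGY1611), 0.0643% (AGY1613 and AGY1611), 0.193% (AGY1613 and AGY1612), 0.3% (AGY1614 and AGY1612) and 1.22% (AGY1614 and AGY1613) of all entries were called.

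In batch 2 the joint edgeR test called HHF2 (adjusted p = 0.000551), HHF1 (0.0287) and HHT1 (0.0357), 3 of 10 entries against 6.22% of all. Differences of the 5 other strains from AGY1611 were called in 0 of 50 tests by edgeR (0.371% of all entries in AGY1613, 1.73% in AGY1859, 0.349% in AGY1860, 0.24% in AGY1862 and 0.393% in AGY1863). At an unadjusted p under 0.05 there were 11 of the 50, and DESeq2 called 1. At that unadjusted p edgeR found 421 (AGY1863) to 657 (AGY1859) of all 4579 entries in a strain.

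Plasmids with genes whose products handle histones moved in both directions, and their counts stand beside 21.3% to 28.3% of all entries lower and 17.1% to 24.8% higher in batch 1, and 7.01% to 14.7% lower and 4.04% to 7.62% higher in batch 2. Genes named here and in the next paragraph have the lowest or highest mean change of their list, so their calls do not stand for it. The first list held regulators of histone gene transcription (the HIR complex and factors such as Spt10). In it 9 of 32 tests in batch 1 and 11 of 48 in batch 2 were lower, and 0 were higher. HIR2, a subunit of the HIR repressor complex, was lower in 10 of 10 comparisons (mean -2.54, -3.46 to -1.43). It gave 4 of those 9 lower tests and 6 of the 11. Among histone chaperones and assembly factors (8 of 10 listed genes had an entry) 12 of 32 tests were lower and 6 higher in batch 1, and 11 of 48 lower and 1 higher in batch 2. HAT1, the catalytic subunit of a histone acetyltransferase acting on new H4, was lower in 10 of 10 (mean -2.73). It gave 4 of the 12 lower tests in batch 1 and 6 of the 11 in batch 2. ASF1, a chaperone of H3 and H4, was higher in 3 of 10 (mean 0.43). Of H2A.Z exchange, by the SWR1 complex and Chz1, 13 of 48 tests were lower and 11 higher in batch 1, and 8 of 72 lower and 4 higher in batch 2. In it SWC4, a SWR1 subunit, was lower in 7 of 10 (mean -1.61) and BDF1, a bromodomain protein found with SWR1, higher in 6 (mean 0.76). In batch 1 the counts with summed cultures were 4 lower and 0 higher of 32 for the transcription regulators, 10 and 2 of 32 for the chaperones, and 5 and 3 of 48 for H2A.Z exchange. The background for these summed counts is 9.69% (AGY1613) to 26.6% (AGY1614) of all entries called in either direction. HIR2 and HAT1 were then still lower in 4 of 4 strains of batch 1, SWC4 in 2, and BDF1 and ASF1 were higher in 3 and 2.

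The next lists have the same backgrounds, 21.3% to 28.3% lower and 17.1% to 24.8% higher in batch 1 and 7.01% to 14.7% lower and 4.04% to 7.62% higher in batch 2. For Cse4, the centromeric H3 variant, with its chaperone Scm3 and ligase Psh1, 2 of 16 tests were lower and 6 higher in batch 1 and 1 of 24 lower and 5 higher in batch 2. SCM3 was higher in 6 of 10 (mean 0.83) and an entry of CSE4 lower in 2 (mean -0.37). FACT, Nhp6 and Spt6 genes had 2 lower and 2 higher of 20 tests in batch 1 and 0 and 1 of 30 in batch 2; the FACT subunit gene POB3 was higher in 2 (mean 1.06, from -1.39 to 4.32) and SPN1, whose product binds Spt6, lower in 2. Histone degradation genes had 4 lower and 4 higher of 16 and 3 and 3 of 24, with the ubiquitin ligase gene HEL2 lower in 2 and the ubiquitin-conjugating enzyme gene UBC5 higher in 5. Importer genes had 3 lower and 1 higher of 12 and 4 and 0 of 18, with KAP95, the gene of importin beta, lower in 3 and KAP114, an importer of H2A and H2B, lower in 1 and higher in 1. RTT106, a chaperone that acts at histone promoters, was lower in 1 of 10 (mean 0.05). For batch 1 with summed cultures the counts of these lists were 0 lower and 2 higher of 16 for the Cse4 genes, 1 and 0 of 20 for FACT, Nhp6 and Spt6, 1 and 2 of 16 for degradation, and 1 and 1 of 12 for importers. Their background is again 9.69% to 26.6% of all entries called in either direction with summed cultures. The calls of CSE4, POB3, HEL2 and RTT106 in batch 1 were then lost, SCM3 was higher in 2 of 4 strains and UBC5 in 1, SPN1 and KAP95 were lower in 1 each, and KAP114 was still higher in 1.

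By the smallest root-mean-square difference of the fitted changes over the 10 comparisons, among 4312 other entries, those most like HHT2 were SNA2 (0.66), RPP2B (0.743), the gene of a ribosomal stalk protein, and ERS1 (0.80). Those most like HTZ1 were PZF1 (0.123), the gene of the transcription factor TFIIIA, ECM38 (0.131), the gene of a gamma-glutamyltransferase, and CNS1 (0.132), the gene of an Hsp90 co-chaperone.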

How the data were processed

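The authors deposited 1 table per batch that gives the raw count of each plasmid barcode, named by gene entry, in every library. Per the labels' protocols, plasmids were recovered from cell pellets and barcodes amplified with 20 PCR cycles; how reads were assigned to barcodes is not given in the sources used here. PCR products are not independent molecules. Each library took its strain, batch, generation and culture from its label. The histone genes and the gene lists were chosen with earlier results of these data known. Each batch was fitted as a whole in edgeR 4.0.16 under R 4.3.3 (TMM, filterByExpr at a minimum count of 10, the empty vector left out, 1 coefficient per strain and generation, quasi-likelihood F tests, Benjamini-Hochberg over 4615 and 4579 entries). Alternatives were DESeq2 1.42.0, other scalings and filters, summed cultures, a replicate block, fits on fewer libraries and leaving out each library. For the difference between copies, a pseudocount of 1 CPM was added. The edgeR fits were tested on simulated counts drawn independently for each library. These lack the likeness of paired cultures in batch 1, so that test could not show its effect on p-values. Named genes were all histone genes, the lowest and highest mean of each list (at least 50 counts per starting library) and the 3 most like patterns. Names were matched to assembly R64.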

Additional observations from a re-analysis of the deposited data

Results flagged for a closer look

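HTA1 at generation 0 of AGY1612 had 1 culture, A, at 240.7 CPM, set apart from the other 3 at 275.9 to 279.3. This was the only such sample among 88 groups of 4 tested, where chance gives about 4.4. Culture A also held the lowest HTA1 start in AGY1611 (204 CPM) and AGY1614 (227.2), but the highest in AGY1613 (275.6).

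A joint edgeR test of strain differences in the generation 10 change called these entries. In batch 1, with 4 cultures a strain, the adjusted p-values were 5.41e-05 for HTB2, 0.00024 for HHF1, 0.000376 for HHF2, 0.00053 for HTA2, 0.000609 for HTB1 entry 2, 0.00264 for HHT1, 0.00614 for HHT2, 0.0155 for HHO1 and 0.0284 for HTA1. With summed cultures the same test called 0 of 11, at edgeR adjusted p-values of 0.0986 or more. In batch 2 they were 0.000551 for HHF2, 0.0287 for HHF1 and 0.0357 for HHT1.

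Differences between pairs of batch 1 strains that edgeR called with 4 cultures a strain were as follows. AGY1612 minus AGY1611 was -2.55 for HHT2, -2.02 for HHF2, -1.89 for HTB1 entry 2, -1.52 for HHF1, -1.29 for HTA2, -1.29 for HTB2 and -1.06 for HHT1. AGY1613 minus AGY1611 was -1.88 for HHF2, -1.52 for HHF1, -1.47 for HTB2 and -0.78 for HHT1. AGY1614 minus AGY1611 was -2.57 for HHT2, -2.50 for HTB2, -2.45 for HTB1 entry 2, -1.77 for HHF1, -1.43 for HHF2, -1.28 for HTA2, -0.86 for HHT1 and -0.68 for HTA1. AGY1614 minus AGY1613 was -2.40 for HHO1, -1.60 for HTB1 entry 2, -1.02 for HTB2, -0.76 for HTA2 and 0.49 for HTZ1. AGY1614 minus AGY1612 was -1.21 for HTB2, and AGY1613 minus AGY1612 was 0.77 for HTA2. In batch 1 the cultures of a strain fall in pairs, and with these summed 1 of the differences, HTB2 in AGY1614 minus AGY1611, was still called by edgeR. The part of the transformation was not tested.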

How the results depend on the processing

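Batch 1 calls at generation 10 numbered 22 to 33 and those of batch 2 19 to 33 over the alternatives, beside 32 and 26. At generation 5 the 3 calls became 8 with library size alone (6 lower) and 8 in fits on each comparison's libraries, and 1 with a minimum mean of 50 counts. The 3 include HTB1 entry 1 in AGY1861, which passed the low-count filter only through the 3 libraries where it was called. Without that entry 2 of 40 tests were called. The other counts at generation 5 in this paragraph are not split by that entry. Strain differences in batch 1 fell from 26 to 1 with summed cultures; in batch 2 DESeq2 called 1 in place of 0. Samples with the same replicate label at different generations had deviations that correlated at -0.209 to 0.565, above 0.1 for every pair in 4 of 14 groups (AGY1859, AGY1860 and AGY1863 at generation 10 and AGY1860 at generation 5), and the others were not taken as paired. Of these 4, the block changed calls in AGY1860 at generation 10 alone. With the replicate block, calls were 31 in batch 1, 33 in batch 2 and 3 at generation 5, and 18 strain differences remained. HTZ1 lost its call in AGY1613 of batch 1 under the block (log2 change 0.35, edgeR adjusted p = 0.0666).

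HTB1 entry 2 minus HTB2 missed the threshold in batch 2 alone (-0.26), without AGY1611 and AGY1613 (-0.48, chosen after seeing the data), and without 1 strain other than AGY1613 or AGY1859 (-0.47 to -0.26 over all 8 strains left out); without 1 replicate label it was -0.43 to -0.31 and missed the threshold without A, 1, 2 or 3; with HTB1 entry 1, also chosen after seeing the data, it was 1.34. At generation 5 HTA1 minus HTA2 was -0.40 (0.06 without AGY1861), HHT1 minus HHT2 was 0.87 and HHF1 minus HHF2 was 0.32. HTZ1 in AGY1861 at generation 5 was -0.70 with library size alone, where it passed the edgeR threshold as lower.

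Values that did not pass the test changed sign in some settings. With library size alone these were, in batch 1, HHF1 (-0.018) and HHT1 (-0.20) in AGY1611 and HTB1 entry 1 in AGY1613 (-0.091) and AGY1614 (-0.28), and in batch 2 HHT1 in AGY1862 (-0.084). HHT1 in AGY1611 was -0.066 with DESeq2, -0.067 with its size factors and -0.0048 with a minimum mean of 50 counts. In AGY1860 HHF1 was 0.0029 with no filter, 0.0068 with that minimum and 0.085 without AGY1861, and HTB2 was 0.073 without AGY1861. Leaving out 1 library, batch 1 gave -0.050 to 0.10 for HHT1 and -0.50 to 0.16 for HTB1 entry 2 in AGY1611, and -0.036 to 0.20 and -0.018 to 0.46 for HTB1 entry 1 in AGY1613 and AGY1614. Batch 2 gave -0.93 to 0.043 for HTB2 in AGY1611, -0.22 to 0.72 for HHO1 in AGY1613, -0.071 to 0.079 for HTB2, -0.18 to 0.13 for HHF1, -0.44 to 0.26 for HTB1 entry 2 and -1.30 to 0.34 for HHO1 in AGY1860, -0.49 to 0.27 for HTB2, -0.10 to 0.23 for HHT1 and -0.42 to 0.027 for HHO1 in AGY1862, and -0.34 to 0.011 for HTB2 in AGY1863. The cause was not tested. Levels under about 20 CPM rest on few counts, so that HHT2 and HHO1 are the least precise.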
